A study of Mus musculus with 24 samples.

Results

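Levels of 50 genes of DNA replication and mitosis were described in Cirh1a heterozygote and wild-type mouse embryos. The genes were 27 of DNA replication and 23 of mitosis. They were picked by name from a list of these functions and found through the target ID of the array, which is a transcript target read by 1 or more probes, or through an older symbol of the gene. All 50 were found among 31483 target IDs. Of these, 48 had values on all 24 arrays. Cdt1 (target ID RIS2) and Aurka (target ID STK6) were read at E9.5 and E11.5 alone. Cdk1, Cdc45, Orc1 and Orc6 stood under the older names CDC2A, CDC45L, ORC1L and ORC6L.

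The arrays covered 8 groups of 3 samples. Whole embryos of embryonic day (E) 8.5 and E9.5 and livers of E11.5 and E12.5 were each taken from heterozygotes, in which a β-Geo gene trap interrupts 1 copy of Cirh1a, and from wild-type embryos. All came from strain C57BL/6 JAX, were called littermates in the study's design text and were typed by PCR on the yolk sac; no treatment was given in the labels. Cirh1a encodes cirhin, a protein needed to make the small ribosomal subunit. The labels did not say whether samples were single or pooled embryos or how many litters a stage held, so p-values measure the spread between these samples.

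Before a cell divides, the MCM helicase is loaded at replication origins by the origin recognition complex, Cdc6 and Cdt1, and is then switched on to unwind DNA for the polymerases. Many genes of this machinery are transcribed at the start of S phase by E2F factors, which bind a GC-rich site after a run of T. Genes of mitosis peak later in the cycle, through promoters with CCAAT boxes and a cell cycle genes homology region (CHR). In the early embryo nearly all cells divide, and in the fetal liver red cell precursors and hepatoblasts do.

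The promoters of both groups are shown because they carry these motifs in different shares. RefSeq windows (mouse build GRCm38.p6) from 250 bases before to 50 after the transcription start were found for 42 members. Ccna2, Kif20a, Gmnn, Mcm4, Tpx2, Pole, Aurkb and Ccne2 were not among them. The E2F words searched were TTTCCCGC, TTTCGCGC, TTTGCCGC and TTTGGCGC, the CHR word was TTTGAA and the CCAAT box was CCAAT, all on both strands. An E2F word stood in 11 of 23 replication promoters (47.8%) and in 1 of 19 mitosis promoters (5.26%), against 2.60% of 27025 genes. A CHR word stood in 3 of 23 replication promoters (13%) and in 13 of 19 mitosis promoters (68.4%), against 20.2% of all genes. The CCAAT box stood in 14 of 23 replication promoters (60.9%) and 16 of 19 mitosis promoters (84.2%), against 41.1% of all genes. A cell cycle dependent element (GGCGG) with 4 or 5 bases between it and the CHR word was found in Cenpf alone of the 42, against 0.0666% of all genes. A match is a description of these letters and was not tested as a binding site.

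The printed promoters are the 3 of each group with most matches among the genes singled out by the rule given with the processing, with ties taken in order of name and written 5′ to 3′ on the gene's strand. Top2a, with 2 CHR words and 6 CCAAT boxes, held more than any printed but was outside that rule; Mki67 tied with Ccnb2 and Cdca8. Capitals mark matches to an E2F word, a CHR word or a CCAAT box on either strand; matches that overlap run together. Mcm5, Mcm6 and Mcm7 encode subunits of the replicative helicase. Their windows lie at chr8:75109259-75109558 on the plus strand, chr1:128359656-128359955 on the minus strand and chr5:138171834-138172133 on the minus strand.
Mcm5: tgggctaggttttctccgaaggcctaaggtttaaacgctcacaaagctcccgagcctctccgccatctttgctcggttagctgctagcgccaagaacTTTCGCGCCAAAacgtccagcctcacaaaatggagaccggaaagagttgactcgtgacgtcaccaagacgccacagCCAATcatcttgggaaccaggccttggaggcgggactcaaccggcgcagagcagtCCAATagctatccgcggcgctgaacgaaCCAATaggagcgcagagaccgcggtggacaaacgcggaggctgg
Mcm6: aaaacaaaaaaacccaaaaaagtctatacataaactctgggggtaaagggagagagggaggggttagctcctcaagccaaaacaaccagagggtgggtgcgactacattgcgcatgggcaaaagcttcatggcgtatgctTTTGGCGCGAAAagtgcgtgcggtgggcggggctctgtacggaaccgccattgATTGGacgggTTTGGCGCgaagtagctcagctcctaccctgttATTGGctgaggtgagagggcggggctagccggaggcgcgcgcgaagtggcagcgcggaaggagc
Mcm7: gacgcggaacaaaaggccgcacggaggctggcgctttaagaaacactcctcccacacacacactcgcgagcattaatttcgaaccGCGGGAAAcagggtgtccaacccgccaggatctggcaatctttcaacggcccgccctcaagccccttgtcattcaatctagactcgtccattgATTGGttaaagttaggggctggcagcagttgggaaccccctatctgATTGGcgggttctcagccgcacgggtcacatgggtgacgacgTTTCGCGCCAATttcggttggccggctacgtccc
Each of these 3 windows held 2 or 3 E2F words and 2 or 3 CCAAT boxes and no CHR word. In Mcm5 an E2F word began at position -153 from the start, and an overlapping one on the other strand spanned position -149.

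Cdk1 is the kinase that drives entry into mitosis, Ccnb2 encodes a B-type cyclin that activates it, and Cdca8 encodes borealin of the chromosomal passenger complex. Their windows lie at chr10:69352863-69353162, chr9:70421505-70421804 and chr4:124936868-124937167, all on the minus strand.
Cdk1: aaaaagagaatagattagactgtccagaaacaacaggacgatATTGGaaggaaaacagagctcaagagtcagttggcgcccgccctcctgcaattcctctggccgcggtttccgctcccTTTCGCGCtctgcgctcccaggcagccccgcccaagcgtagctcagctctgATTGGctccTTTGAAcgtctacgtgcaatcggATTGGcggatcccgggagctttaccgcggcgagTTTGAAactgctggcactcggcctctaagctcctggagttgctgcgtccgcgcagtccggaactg
Ccnb2: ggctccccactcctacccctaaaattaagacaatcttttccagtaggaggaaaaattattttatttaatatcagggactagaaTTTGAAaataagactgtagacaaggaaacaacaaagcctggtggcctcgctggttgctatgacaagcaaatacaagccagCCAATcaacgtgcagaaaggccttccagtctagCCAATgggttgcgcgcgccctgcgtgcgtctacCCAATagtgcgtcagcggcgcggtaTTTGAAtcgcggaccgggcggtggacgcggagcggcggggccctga
Cdca8: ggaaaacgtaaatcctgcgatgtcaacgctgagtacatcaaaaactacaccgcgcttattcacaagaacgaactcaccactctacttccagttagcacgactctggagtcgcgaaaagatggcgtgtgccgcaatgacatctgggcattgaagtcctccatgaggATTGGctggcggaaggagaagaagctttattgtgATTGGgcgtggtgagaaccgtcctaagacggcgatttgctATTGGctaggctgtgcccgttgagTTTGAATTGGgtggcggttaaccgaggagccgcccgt
Ccnb2 held 2 CHR words and 3 CCAAT boxes, Cdca8 held 1 CHR word and 4 CCAAT boxes, and Cdk1 held 2 CHR words, 3 CCAAT boxes and 1 E2F word. Cdk1 was the 1 mitosis promoter with an E2F word.

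Most members of both groups lay high among all transcripts at every stage. Levels are given as percentiles, the share of the 25206 target IDs with values on all 24 arrays that lay at or below a gene on the same array. The median replication gene stood at percentiles of 89.9 ± 1.03, 92.8 ± 0.17, 93.1 ± 0.32 and 93.8 ± 0.13 in E8.5 and E9.5 embryos and in E11.5 and E12.5 livers (mean of the array medians ± SD, n = 6 arrays). The median mitosis gene stood at 90.8 ± 0.54, 93.0 ± 0.20, 91.2 ± 0.40 and 93.3 ± 0.47 at the same stages. Members above the 90th percentile numbered 25 of 48, 31 of 50, 33 of 50 and 33 of 48 in the same order. Probes differ in how brightly they read, so percentiles order signals and not transcript amounts, and a low percentile can be a weak probe.

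Mcm5 was among the 2 highest members at every stage, at 99.3 ± 0.07, 99.2 ± 0.03, 99.4 ± 0.09 and 99.3 ± 0.06 (SD, n = 6) from E8.5 to E12.5. Of the other replication genes, Uhrf1, which recruits the maintenance DNA methyltransferase to new DNA, reached 99.5, 98.5, 98.0 and 98.7 at those stages. Fen1, the nuclease that trims Okazaki fragments, stood between 97.6 and 98.5, and the origin recognition subunit Orc6 between 98.1 and 98.6. The licensing factor Cdt1 stood at 97.8 at E9.5 and 98.4 at E11.5. Among the mitosis genes, the kinase Plk1 stood at 99.0, 97.3, 98.3 and 98.8. The anaphase activator Cdc20 was at 99.1 at E8.5 and at 96.3, 96.7 and 97.5 at the later stages. Survivin (Birc5) stood between 96.9 and 98.6, Cdca8 between 94.2 and 98.8, and cyclin B1 (Ccnb1) between 96.2 and 98.5. These positions were close on all arrays of a stage, with SDs of at most 0.50 points (Cdca8 at E11.5).

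A few members read low, below the 50th percentile of all transcripts; detection above background was not analysed here. The DNA polymerase alpha subunit Pola1, the cyclin Ccnb2, the checkpoint kinase Bub1 and the kinesins Kif20a and Cenpe had mean percentiles under it at all 4 stages. Ccnb2 stood at 22.4 ± 10.2, 10.4 ± 8.03, 22.8 ± 10.2 and 23.9 ± 16.3 (SD, n = 6), and Bub1 at 26.8, 13.1, 9.1 and 18. The SDs of these genes reached 20.3 points (Cenpe at E8.5), so their order among themselves was not resolved. Gmnn (geminin, the inhibitor of Cdt1) and the checkpoint kinase Ttk were intermediate, at 66 to 71.3 and at 58.6 to 69.6.

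**Figure D1:**
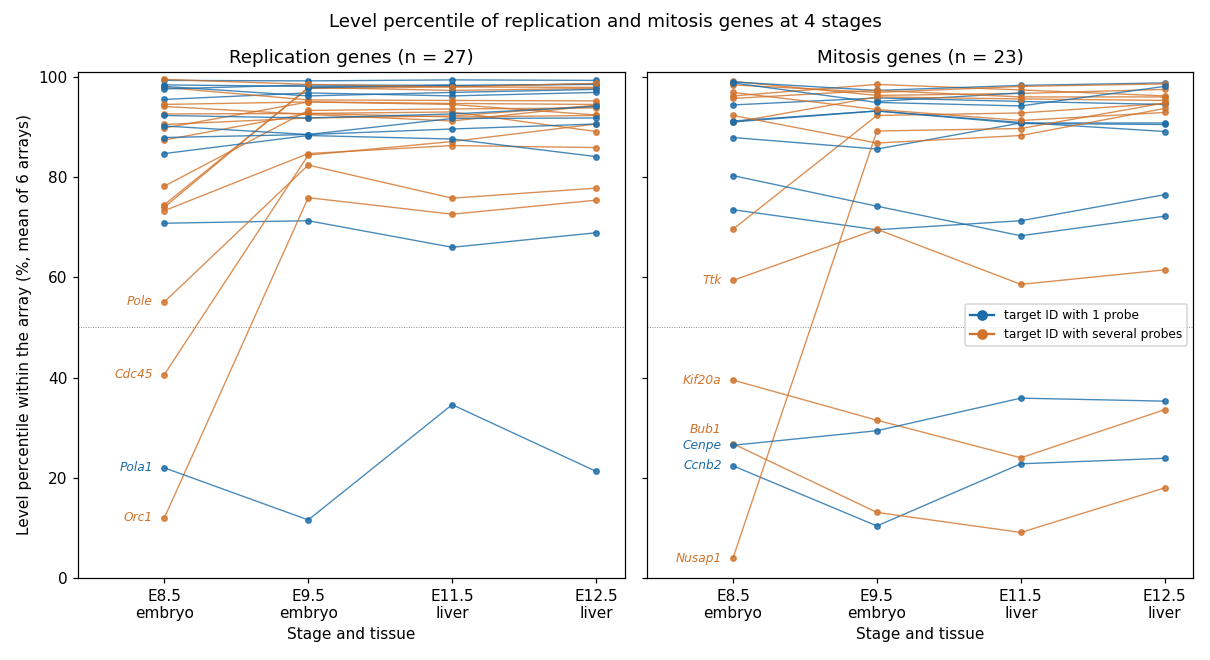
Level percentile of the members at E8.5, E9.5, E11.5 and E12.5 (vertical axis, percent of target IDs at or below the gene), replication and mitosis genes apart. Most members lie above the 90th percentile, 5 lie below the 50th at every stage, and a set including Nusap1, Orc1 and Cdc45 is low at E8.5 alone.

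From whole embryo to liver, most members kept their place. In percentile points, as the mean of E11.5 and E12.5 minus the mean of E8.5 and E9.5, the largest negative differences were -7.0 for the kinetochore protein Cenpf, -6.7 for Kif20a, -6.4 for Bub1, -4.5 for Ttk and -3.6 for Gmnn. The largest positive ones were 45.6 for the spindle protein Nusap1, 30.0 for the origin recognition subunit Orc1, 26.3 for the helicase cofactor Cdc45, 12.9 for Cdk1 and 11.9 for Mcm4. All 5 genes with positive differences were low at E8.5 and not at E9.5. Between E9.5 embryo and E11.5 liver alone, the same genes differed by 0.5 points for Nusap1, -3.3 for Orc1, 2.7 for Cdc45, 0.5 for Cdk1 and 0.3 for Mcm4. Ttk differed by -11.0 points and Cenpf by -5.9 between these 2 stages.

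The members low at E8.5 alone had several probes, but most members with several probes were not low. Cdc20, with 4 probes, stood at 99.1 at E8.5 and Tyms, with 5, at 90.5. Nusap1 stood at 4.0 ± 4.49 at E8.5 and at 89.2 ± 0.29, 89.7 ± 0.52 and 94.8 ± 0.40 at the later stages (SD, n = 6). Its log2 levels at E8.5 were 1.38, 0.96 and 1.44 in heterozygotes, against 1.53, 1.46 and 1.78 in wild type, so the highest of the 6 arrays read 1.78. Cdc45 stood at 40.6 at E8.5 and at 84.4 to 90.6 later, Cdk1 at 69.6 and at 92.3 to 94.7, Mcm4 at 74.5 and at 97.7 to 98.0, and Mcm6 at 74.0 and at 97.3 to 97.9. Of 38 members above the 75th percentile at the 3 later stages, 7 lay below it at E8.5 (Mcm4, Mcm6, Cdc6, Cdc45, Pole, Cdk1 and Nusap1). Nearest to that line were Mcm4 at 74.5 below it and the clamp loader subunit Rfc4 at 78.2 above it. All 7 were among the 23 with several probes, and 0 of the 15 with 1 probe were low. Over all target IDs, the same was seen in 624 of 2511 with several probes (24.9%) and 50 of 2590 with 1 probe (1.93%). No member was low at E9.5, E11.5 or E12.5 alone. What set these readings apart was not tested.

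Kif23, the kinesin of the midzone and cytokinesis, was read by 2 target IDs, under a current and an older symbol. The target ID KIF23, with 3 probes, had log2 levels at E8.5 of 2.90, 4.51 and 4.41 in heterozygotes, against 4.41, 3.57 and 3.55 in wild type. The target ID KNSL5, with 1 probe, had 8.72, 8.60 and 8.61 in heterozygotes, against 8.74, 8.41 and 8.25 in wild type. In percentiles KIF23 stood at 64.2 at E8.5 and at 95.7, 94.0 and 95 later, whereas KNSL5 stood at 87.9, 85.6, 90.8 and 90.8. The 2 readings of the gene thus differed in order at E8.5 from the later stages. KNSL5 was used for Kif23, since its mean level over the 24 arrays was the higher, though KIF23 read higher at the later stages. Kif23 is thus counted among the members with 1 probe through a rule that itself used the E8.5 readings. Mcm10 and Kif11 also had further target IDs, which stood lower than those used at every stage.

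**Figure D2:**
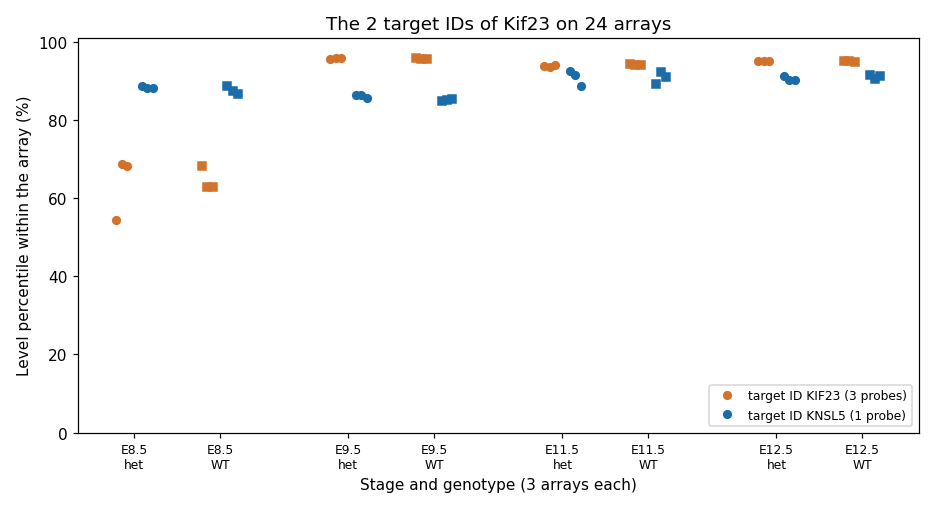
Level percentile of Kif23 on each array by stage, for the target ID with 3 probes (KIF23) and the target ID with 1 probe (KNSL5). At E8.5 the 3-probe values lie between 54.4 and 68.8 and the 1-probe values between 86.5 and 88.7; at the later stages the 3-probe values lie above 93.

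E12.5 livers and E8.5 embryos were set against each other because these 12 arrays alone shared 1 distribution of values; stage and tissue cannot be told apart in it. Target IDs above the median level at either stage entered the fit. Nusap1, Cdc45 and Orc1 entered it through E12.5 liver alone and so had to read higher there; they are given as levels. Of the 40 members above the median at both stages, a filter chosen after seeing the data, 19 were higher in E12.5 liver and 10 lower at an adjusted p under 0.05 in limma. Over the 10580 target IDs that passed the same filter, 26% were higher and 47.2% lower, with a median difference of -0.28. Replication genes had 14 higher and 4 lower of 23 (median 0.55), and mitosis genes 5 higher and 6 lower of 17 (median 0.036). With the 3 genes, the counts were 22 higher and 10 lower of 43, against 29.5% and 44.5% of 14626 target IDs.

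The largest differences were those of several-probe members with low readings at E8.5. Nusap1 averaged 10.39 in E12.5 liver, against 1.43 in E8.5 embryo, Cdc45 9.20 against 2.49 and Orc1 5.91 against 1.74 on the log2 scale (n = 6 each). These E8.5 values lie at the low end of the arrays, so the differences drawn for these 3 genes are not read as the size of a change. Mcm4 (6.04), Mcm6 (6.01) and Cdk1 (5.68) passed the filter at both stages, with E8.5 percentiles of 74.5, 74.0 and 69.6. All these values come with the E8.5 readings described above, whose part in them was not tested.

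Members with 1 probe gave smaller differences. Of the 18 tested, 8 were higher and 5 lower, against 21.4% higher and 43.9% lower over all 8879 target IDs with 1 probe. In E12.5 liver Fen1 had log2 levels of 12.19, 12.28 and 12.17 in heterozygotes and 12.26, 12.42 and 12.17 in wild type. At E8.5 it had 11.56, 11.59 and 11.68 in heterozygotes and 11.44, 11.59 and 11.58 in wild type. Every liver value lay above every embryo value, and Fen1 rose by 0.67 (SE 0.0783, adjusted p = 6.0e-06 in limma). Kif23 rose by 0.69, cyclin E1 (Ccne1) by 0.63, cyclin A2 (Ccna2) by 0.63, Mcm2 by 0.58 and E2f1, the S phase transcription factor, by 0.55. Ccne2 (0.42) and Orc6 (0.21) were the other 2 that rose.

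Cenpf fell by 1.71 (SE 0.215, adjusted p = 1.2e-05), with 5.01, 5.39 and 5.40 in E12.5 heterozygote livers and 4.63, 5.71 and 5.23 in wild-type livers. At E8.5 Cenpf had 6.30, 7.07 and 7.27 in heterozygote embryos and 6.93, 6.70 and 7.37 in wild-type embryos, with no overlap between the stages. Cdca8 fell by 0.68, the spindle kinesin Kif11 by 0.51, the polymerase delta subunit Pold1 by 0.40 and Plk1 by 0.22. Among members with several probes, topoisomerase II (Top2a, -1.45), Cdc20 (-1.35), Mcm10 (-1.23), Uhrf1 (-1.19) and Mcm3 (-0.91) also fell. Of the same kind, the checkpoint protein Bub1b (1.31), the DNA ligase Lig1 (1.19), thymidylate synthase (Tyms, 1.06), Mcm7 (0.64) and Birc5 (0.23) rose. Rfc4 (3.59), Pole (3.2) and Cdc6 (2.66) read higher too. Their E8.5 percentiles of 78.2, 55.1 and 73.3 lay below those of each later stage. The part of these E8.5 readings in the 3 differences was not tested. Mcm5 (-0.03), the sliding clamp Pcna (-0.12) and Aurkb (0.04) were among the 11 that did not pass the test, with 95% intervals of -0.21 to 0.15, -0.40 to 0.16 and -0.13 to 0.20.

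**Figure D3:**
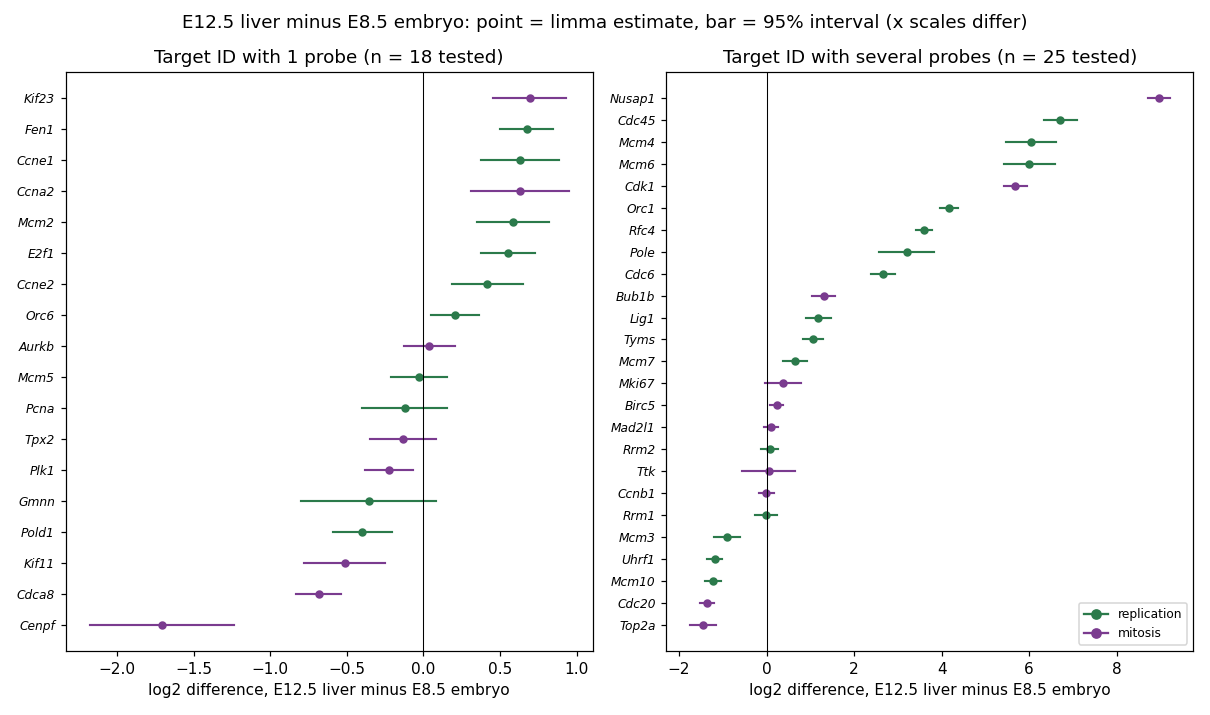
Difference in log2 level, E12.5 liver minus E8.5 whole embryo, for each tested member with its 95% interval, by number of probes. Members with several probes spread from -1.45 to 8.96, those with 1 probe from -1.71 to 0.69; Nusap1, Cdc45 and Orc1 passed the level filter at E12.5 alone.

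Cell markers differed between these tissues as well. Of 14 erythroid markers, 11 were higher and 1 lower in E12.5 liver (median 4.5), 9 of 10 tested hepatocyte markers were higher (median 2.32) and 6 of 6 cardiac markers were lower (median -5.73). In such bulk samples fewer cells of a type and less RNA per cell cannot be told apart. Their part in the members' differences was not tested. E12.5 liver had the red cell transcription factor Klf1 at the 98.0 percentile, against 76.2 in E8.5 embryos. The cardiac light chain Myl7 was at 73.2, against 97.3. The carrier Ttr was at 99.7, against 99.5, so its percentile did not set the 2 tissues apart. Albumin had no value at E8.5 and E12.5 here and stood at 49.6 in E11.5 liver.

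The comparison of heterozygotes with wild type asks whether the loss of 1 functional Cirh1a copy goes with a change in proliferation genes. Cirh1a itself had E8.5 log2 levels of 9.88 ± 0.03 in heterozygotes and 10.83 ± 0.17 in wild type (SD, n = 3 each). Its E9.5 levels were 10.89 ± 0.14 in heterozygotes and 11.75 ± 0.02 in wild type, and its E12.5 levels 9.46 ± 0.18 in heterozygotes and 10.38 ± 0.08 in wild type. It was not analysed here at E11.5. No replication or mitosis member passed an adjusted p of 0.05 in limma at any stage. Of all target IDs tested, 0.0238% passed in E8.5 embryos, 0.00635% in E9.5 embryos and 0% in livers of either stage. The 3 that passed at E8.5 were the sex-linked Xist, Eif2s3y and Kdm5d. Members with an unadjusted p under 0.05 numbered 0 of 40 in E8.5 embryos, 5 of 45 in E9.5 embryos, 1 of 45 in E11.5 livers and 1 of 43 in E12.5 livers. The shares over all target IDs were 3.77%, 11.1%, 2.63% and 3.86% in the same order. The members' counts lay near or below this background.

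Members left out were those without values and those at or below the median level of the stage. Without values were Cdt1 and Aurka at E8.5 and E12.5. The low ones were Pola1, Ccnb2, Bub1, Kif20a and Cenpe at every stage, and Nusap1, Orc1 and Cdc45 at E8.5. The precision differed between stages, with a median SE over members of 0.170 and 0.0589 in E8.5 and E9.5 embryos and of 0.0885 and 0.104 in E11.5 and E12.5 livers. The 95% interval of the difference lay within 0.5 log2 either way, which is 41.4% more or 29.3% less transcript, in 20 of 40, 45 of 45, 44 of 45 and 37 of 43 members in the same order. Differences above that size were therefore outside the intervals of every tested member at E9.5, but not of the other 20 at E8.5.

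At E9.5 the values were tightest. The differences of the 26 replication members ran from -0.19 to 0.085 (median -0.020), and those of the 19 mitosis members from -0.29 to 0.16 (median -0.016). Over all target IDs the median was 0.000. Of the 45, 28 were negative and 17 positive. The groups did not overlap with heterozygotes below in 5 members and above in 4, against 9.27% and 8.33% of all target IDs.

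Mki67, which encodes the Ki-67 protein that coats mitotic chromosomes and marks cycling cells, had the smallest p of the members. Its log2 levels at E9.5 were 10.04, 10.08 and 10.07 in heterozygotes, against 10.27, 10.42 and 10.38 in wild type. The groups did not overlap, and the difference was -0.29 (SE 0.0574, adjusted p = 0.146 in limma), a heterozygote level of 81.7% of wild type. At the other stages its differences were -0.136 (E8.5), -0.032 (E11.5) and 0.012 (E12.5), none past the threshold. Rrm1, the large subunit of ribonucleotide reductase, had 11.81, 11.82 and 11.84 in heterozygotes, against 11.97, 12.04 and 12.03 in wild type at E9.5. Its difference was -0.19 (SE 0.0518, adjusted p = 0.227), without overlap. Cenpf had 8.27, 8.22 and 8.33 in heterozygotes, against 8.54, 8.40 and 8.41 in wild type, a difference of -0.18 (SE 0.0609, adjusted p = 0.321).

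On the positive side at E9.5, Kif23 had 10.12, 10.17 and 10.01 in heterozygotes, against 9.91, 9.94 and 9.98 in wild type. Its difference was 0.16 (SE 0.0592, adjusted p = 0.371). Its 3-probe target ID showed overlapping groups, with 12.13, 12.14 and 12.20 in heterozygotes, against 12.18, 12.15 and 12.11 in wild type. Cdc20 had 12.35, 12.49 and 12.37 in heterozygotes, against 12.30, 12.30 and 12.25 in wild type, a difference of 0.12 (SE 0.0581, adjusted p = 0.5). Plk1 had 12.82, 12.83 and 12.76, against 12.67, 12.75 and 12.70 in wild type, a difference of 0.099 (SE 0.0534, adjusted p = 0.533). These 3 pairs of groups did not overlap. Also without overlap were Orc6 (-0.14, SE 0.0639) and Kif11 (-0.084, SE 0.0563) with heterozygotes below, and Cdc6 (0.085, SE 0.0510) with heterozygotes above. The unadjusted p was under 0.05 for Mki67, Rrm1, Cenpf, Kif23 and the polymerase epsilon subunit Pole.

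By role, the 6 MCM helicase genes at E9.5 lay between -0.087 and 0.027. The 7 licensing and firing factors lay between -0.14 and 0.085, the 6 tested polymerase, clamp and lagging strand genes between -0.17 and 0.052, and the 3 nucleotide supply genes between -0.19 and 0.015. Of the 4 genes of entry into S phase, 3 were negative, from -0.13 to 0.032 (median -0.083). The 3 tested genes of cyclins and Cdk1 were all negative, from -0.11 to -0.016, as were both chromosome genes, Mki67 and Top2a (median -0.21). The mitotic kinases and passenger complex genes lay between -0.12 and 0.099, the checkpoint and anaphase genes between -0.021 and 0.12, and the spindle and kinetochore genes between -0.18 and 0.16.

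Differences of some cell markers at E9.5 were larger than those of the members. All 9 tested of the 12 hepatocyte markers were positive (median 0.85, groups not overlapping in 8). The 3 not tested, albumin, Fgb and Serpina1a, stood at percentiles of 5.9, 27.5 and 42.6 at E9.5. Each tested one stood higher in E8.5 embryos than at E9.5, such as Ttr (99.5, against 96.4) and Apoa1 (98.7, against 90.5). Which cells these readings came from was not tested. Of the neural markers, 5 of 6 were negative (median -0.39). No marker in these 2 lists passed the adjusted threshold, with smallest adjusted p-values of 0.146 and 0.0571. Their part in the values of Mki67, Rrm1 and Cenpf was not tested. Sex-linked genes differed at E9.5 too, with 4 of 5 at an unadjusted p under 0.05 in limma, against 11.1% of all target IDs. The smallest adjusted p was 0.261. Xist averaged 9.84 in heterozygotes and 10.78 in wild type, and genotype correlated with the mean Y-linked level at an r of 0.681. Sex and genotype are therefore not fully separate in any E9.5 difference given here.

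**Figure D4:**
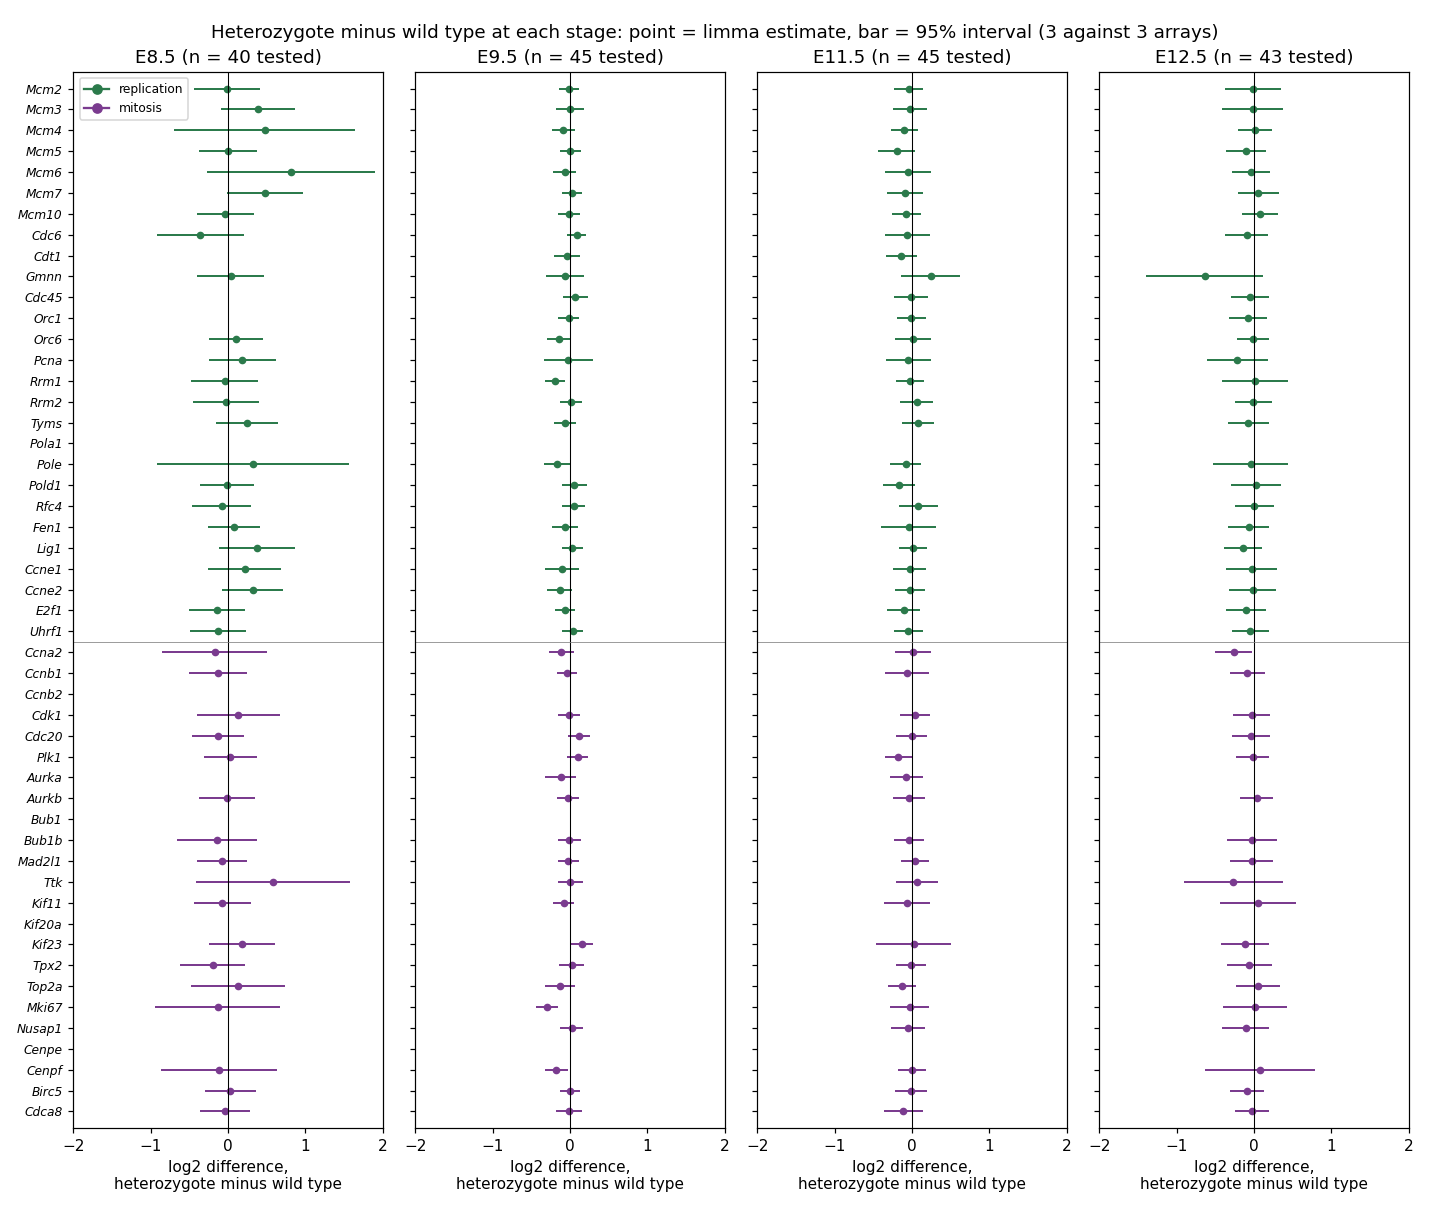
Heterozygote minus wild type difference in log2 level for each tested member at the 4 stages, with 95% intervals. Intervals are narrowest at E9.5 and widest at E8.5, where Mcm6 reaches 0.81 with an interval of -0.26 to 1.88.

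At E8.5 the replication members had a median of 0.073 and the mitosis members one of -0.074, against 0.001 over all target IDs. The array scores of the replication members, the median over the 23 genes of the deviation from the gene's mean at the stage, were 0.07, 0.01 and 0.11 in heterozygotes, against -0.04, -0.02 and 0.01 in wild type. The groups of 4 replication genes did not overlap with heterozygotes above (Mcm3, Mcm7, Lig1 and Ccne2), and 1 mitosis gene lay below (Mad2l1). Over all target IDs these shares were 3.96% and 3.02%. Mcm7 had 9.28, 9.35 and 9.13 in heterozygotes, against 8.98, 8.41 and 8.95 in wild type (0.47, SE 0.199, adjusted p = 1.0).

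Markers of other cells varied between the E8.5 arrays too. The array scores of 13 erythroid markers were -3.063, 1.003 and 0.921 in heterozygotes, against 0.479, 0.639 and 0.013 in wild type, so heterozygote replicate 1 lay far below the other 5. Without that array the medians of the members were 0.059 for replication and -0.013 for mitosis. All 6 cardiac markers were negative (median -0.22, smallest adjusted p = 1.0). Their part in the members' values was not tested.

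Mcm6 had the largest difference at E8.5, with 6.19, 5.86 and 6.03 in heterozygotes, against 6.18, 4.34 and 5.11 in wild type (0.81, SE 0.445, adjusted p = 1.0). The groups overlapped, and wild-type replicate 1 was as high as the heterozygotes. Ttk (0.58, SE 0.409) and Mcm4 (0.47, SE 0.480) followed. These sizes rested on single arrays. Without wild-type replicate 1 the differences were 1.298 for Mcm6, 1.066 for Ttk and 0.92 for Mcm4. Without wild-type replicate 2 they were 0.379 for Mcm6, 0.378 for Ttk and -0.057 for Mcm4, and without wild-type replicate 3 that of Ttk was 0.294. Mcm4 and Mcm6 are the helicase members with low readings at this stage. At the other end were Cdc6, which loads the helicase (-0.36, SE 0.228), the spindle assembly factor Tpx2 (-0.20, SE 0.169) and Ccna2 (-0.17, SE 0.275). Leaving out 1 array in turn, these ran from -0.503 to -0.151 for Cdc6, from -0.311 to -0.106 for Tpx2 and from -0.424 to -0.046 for Ccna2. Heterozygote and wild-type embryos at E8.5 also differed in sex-linked genes: genotype and the mean Y-linked level correlated with an r of -0.998 over the 6 arrays. Sex and genotype cannot be told apart at this stage.

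In E11.5 liver 33 of 45 members were negative, against 50.4% of all target IDs (median -0.001). In replication 20 of 26 were negative and in mitosis 13 of 19, with group medians of -0.045 and -0.032. Without wild-type replicate 1 these medians were 0.004 and -0.005, both near 0. With all arrays, all 6 MCM helicase genes were negative, from -0.20 to -0.028, as were all 5 mitotic kinase and passenger genes, from -0.18 to -0.009. The groups did not overlap with heterozygotes below in 4 members (Plk1, Pold1, Top2a and Mcm4) and above in 0, against 4.05% and 4.14% of all target IDs. Plk1 had 12.49, 12.49 and 12.51 in heterozygotes, against 12.74, 12.63 and 12.66 in wild type (-0.18, SE 0.0715, adjusted p = 1.0). It was the 1 member with an unadjusted p under 0.05, and at E9.5 it lay on the other side. Mcm5 had 13.64, 13.69 and 13.82 in heterozygotes, against 14.09, 13.77 and 13.88 in wild type (-0.20, SE 0.0987, adjusted p = 1.0), with overlap. Pold1 had -0.17 (SE 0.0851).

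The positive end at E11.5 held Gmnn (0.24, SE 0.162), Rfc4 (0.081, SE 0.107) and thymidylate synthase (Tyms, 0.080, SE 0.0845). Gmnn ran from 7.23 to 7.80 in heterozygotes and from 6.96 to 7.43 in wild type, so the groups overlapped. Cardiac markers, which mark tissue beside the liver bud, were positive in 5 of 5 (median 1.22, smallest adjusted p = 1.0). Their array scores were -0.057, -0.522 and 2.75 in heterozygotes, against -0.863, -0.37 and -0.328 in wild type, so heterozygote replicate 3 alone was high. Their part in these values was not tested.

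In E12.5 liver 32 of 43 members were negative, against 49.3% of all target IDs (median 0.002). In replication 19 of 25 were negative and in mitosis 13 of 18, with group medians of -0.036 and -0.030. The array scores of the replication members were -0.053, 0.0 and -0.007 in heterozygotes, against -0.023, 0.113 and -0.024 in wild type, so wild-type replicate 2 alone was high. Without it the replication median was 0.001, and the mitosis median stayed at -0.030. The array scores of the mitosis members did not overlap. They were -0.035, -0.004 and -0.012 in heterozygotes, against 0.011, 0.096 and 0.01 in wild type. Heterozygotes lay below wild type without overlap in 3 members (Lig1, Ccna2 and Ccnb1) and above in 0, against 3.60% and 3.52% of all target IDs. Ccna2 had 6.05, 6.03 and 5.94 in heterozygotes, against 6.26, 6.37 and 6.19 in wild type (-0.26, SE 0.0938, adjusted p = 1.0). Gmnn had 4.76, 3.74 and 4.26 in heterozygotes, against 5.25, 4.90 and 4.52 in wild type (-0.64, SE 0.305, adjusted p = 1.0), with overlap and with the sign opposite to E11.5. Ttk had -0.27 (SE 0.258), a value that was 0.001 without heterozygote replicate 3. Positive values were small, at 0.077 for Cenpf (SE 0.285), 0.076 for Mcm10 (SE 0.0912) and 0.057 for Mcm7 (SE 0.104).

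**Figure D5:**
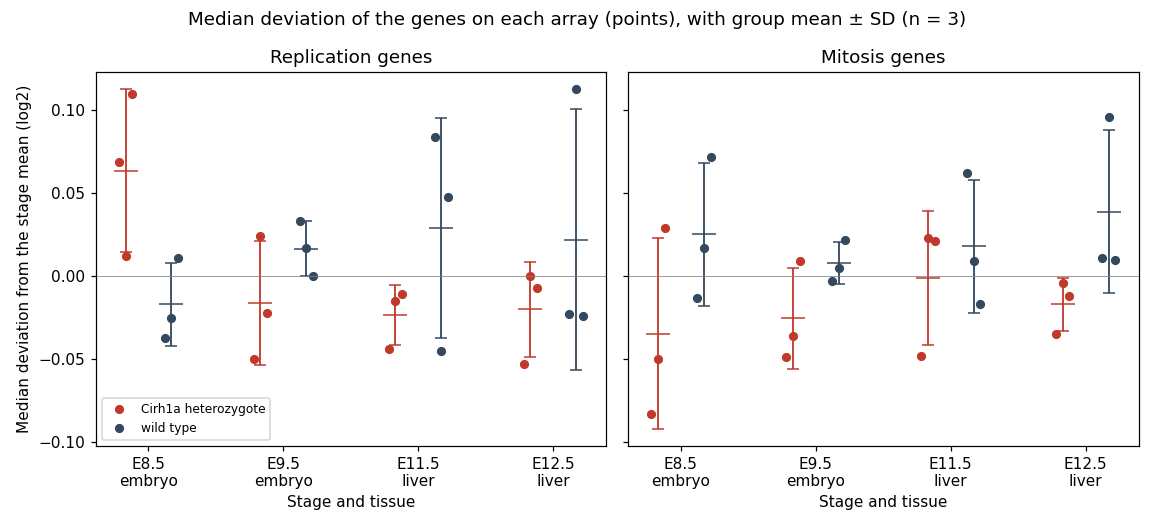
Array score (median over the tested members of the deviation from the gene's mean at the stage, log2) for each heterozygote and wild-type array at the 4 stages, replication and mitosis genes apart. Heterozygote and wild-type points overlap in 6 of the 8 pairs of groups, and the scores lie between -0.083 and 0.113.

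Averaged over the 4 stages in a joint fit of 24 arrays, 28 of 43 members were negative, against 49.7% of all target IDs. The median was -0.007 for replication and -0.033 for mitosis, against 0.001 over all target IDs. The count of members past the threshold was 0 in limma, with 1 at an unadjusted p under 0.05 (E2f1, -0.10, SE 0.0472, adjusted p = 0.926). Over all 16402 target IDs, 0% passed and 5.36% had an unadjusted p under 0.05. All 43 intervals lay within 0.5 log2 either way. The heterozygote difference in liver minus that in whole embryo also had 0 members past the threshold, against 0.0061% of all target IDs. It had 4 at an unadjusted p under 0.05, against 4.87% of all target IDs: Lig1, the DNA ligase of replication (-0.27, SE 0.117), Mcm7 (-0.26, SE 0.126), Orc1 (-0.18, SE 0.0840) and Plk1 (-0.16, SE 0.0766). Their adjusted p-values were 0.982 to 0.998. Orc1 read between 1.55 and 1.97 on the 6 E8.5 arrays, a mean percentile of 12, and was left out of the E8.5 fit for that level, so its value rests on readings at the low end. All 6 MCM genes were negative in this difference (median -0.23), with the E8.5 readings of Mcm4 and Mcm6 entering it. The E8.5 arrays, on which sex and genotype cannot be told apart, enter both this difference and the average. Without them the medians of this difference were -0.019 for replication and -0.029 for mitosis, against -0.087 and 0.014 with them.

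Other genes of the same machinery also gave no call. Of 60 other replication genes, 44, 54, 57 and 47 were tested at E8.5, E9.5, E11.5 and E12.5, and of 72 other mitosis genes 47, 66, 65 and 56. None passed the adjusted threshold in limma at any stage. At E9.5, 4 of 54 and 4 of 66 had an unadjusted p under 0.05, against 11.1% of all target IDs. Their medians at E9.5 were -0.022 and -0.027, with 33 of 54 and 44 of 66 negative. The maintenance DNA methyltransferase Dnmt1 had -0.26 (SE 0.0664, adjusted p = 0.195) there, with 12.05 ± 0.08 in heterozygotes and 12.31 ± 0.09 in wild type (SD, n = 3 each). Atad2 had -0.23 (SE 0.104), the mitotic kinesin Kif4 -0.16 (SE 0.0570) and the condensin subunit Ncapg2 -0.17 (SE 0.0617). Positive ends were Rnaseh2a (0.14), the clamp loader factor Chtf18 (0.12), the centromere protein Cenph (0.12) and Gtse1 (0.10).

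Of 23 cell cycle brakes and G1 regulators, 17 or 18 were tested at each stage and 0 passed the adjusted threshold. At E9.5, 3 of 18 had an unadjusted p under 0.05 in limma, against 11.1% of all target IDs. Cyclin G1 (Ccng1) came nearest. It averaged 10.07 ± 0.02 in E9.5 heterozygotes and 9.65 ± 0.03 in wild type (SD, n = 3 each), a difference of 0.42 (SE 0.0513, adjusted p = 0.0543). At E8.5, where sex and genotype cannot be told apart, its difference was 0.48 (SE 0.178, adjusted p = 1.0). In the joint fit its average over the 4 stages was 0.23 (SE 0.065, adjusted p = 0.557 in limma). Its difference in liver minus that in whole embryo was -0.43 (SE 0.13, adjusted p = 0.693). The median of the whole list at E9.5 was 0.002. The kinase inhibitor Cdkn1a had the next largest positive difference of the list at E9.5. It averaged 8.29 ± 0.09 in heterozygotes and 8.03 ± 0.05 in wild type, a difference of 0.27 (SE 0.0632, adjusted p = 0.174 in limma). Rb1, the brake on E2F factors, had -0.19 (SE 0.0670) at E9.5. At E12.5 the largest values in this list were -0.27 for Cdk6 and 0.13 for Myc.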

How the data were processed

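Total RNA was labelled as biotinylated cRNA and hybridised to Illumina bead arrays, per the labels' protocols. The deposited values are log2 levels per target ID, normalized by the authors; the method, software and probe annotation are not given in the sources used here. In 4 further deposited tables, 48 columns of raw signal and its detection p carry names found in no sample's labels. They were not used; the probe identifiers of these tables gave the number of probes per target ID. From the values, E8.5 and E12.5 arrays share 1 distribution (largest percentile gap 0.00116 log2), whereas E9.5 and E11.5 arrays have their own (gaps of 4.45 and 4.87 to E8.5), so levels were compared across those stages as percentiles alone.

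Of the 31483 target IDs, 13425 matched a RefSeq symbol (GRCm38.p6) and 8110 a single synonym. Where a gene had several target IDs, the one of highest mean level was used. Heterozygote minus wild type was fitted per stage with limma 3.58.1 (lmFit, eBayes) in R 4.3.3 on target IDs above the stage's median level. Two-sided p-values were adjusted by the Benjamini-Hochberg method over all target IDs tested, with a threshold of 0.05. The joint fit of 24 arrays used target IDs with values on all arrays and above the median in at least 1 stage. The number of arrays limits the precision.

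Members, gene lists and markers were chosen with earlier results of these data known. The genes described singly are those past the threshold, the 3 largest differences in each direction per stage, the 5 highest and lowest percentiles per stage and the 5 largest percentile changes in each direction; genes whose groups do not overlap, or with a p under 0.05 before adjustment, are named too. Of each further gene list, the 2 largest in each direction were eligible. On simulated shifts of 1 log2 in 200 target IDs, the stage fit recovered 27.5% and 99.5% in E8.5 and E9.5 embryos and 92.5% and 54% in E11.5 and E12.5 livers. For shifts of 0.5 log2 these shares were 0%, 84%, 47% and 0%. False calls numbered 0 to 10. The shifted target IDs were drawn from all tested ones, with noise independent between target IDs. These shares therefore do not give the power for the members. Alternatives changed the filter, the variance prior, the normalization, the replicate block, the target ID, the arrays and the covariates.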

Additional observations from a re-analysis of the deposited data

How the results depend on the processing

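In each alternative run for the genotype comparisons, 0 members passed the adjusted threshold in limma, those that leave out 1 array included. The count over all target IDs did move. At E8.5 it was 290 in the fit of all 24 arrays, against 3, all of them sex-linked. At E12.5 it was 40 in that fit and 1 with a trend and robust prior, against 0. That fit takes 1 spread for all stages, and the median SE of all target IDs was 0.223 in the E8.5 fit, against 0.0647 in the E9.5 fit. At E9.5 the count of 1 became 8 above the 70th percentile of level, 18 with a trend and robust prior and 2 with the replicate block. It became 0 after a further quantile normalization, with the Y-linked covariate and in the fit of all 24 arrays. Leaving out 1 array, it ran from 0 to 54, the 54 without heterozygote replicate 3. The count for the average effect was 1 with the Y-linked covariate and 1 without E8.5, against 0, and 0 to 51 without 1 array (51 without E8.5 wild-type replicate 1). For liver minus embryo it was 3 with the Y-linked covariate and 0 with the replicate block, with array weights and without E8.5, against 1, and 0 to 68 without 1 array (68 without E8.5 wild-type replicate 1). The causes were not tested. The Y-linked covariate was not run at E8.5, where it cannot be told apart from genotype.

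Without E8.5 the medians of the liver minus embryo difference were -0.019 for replication and -0.029 for mitosis, against -0.087 and 0.014. Some single genes changed sign without passing a threshold. In the average effect Ttk was -0.035 with the Y-linked covariate, and without E8.5 Cdc45 was 0.001, Ttk -0.067, Mcm7 -0.001 and Mcm6 -0.052. In liver minus embryo without E8.5, Mcm6 was 0.025 and Cdc45 -0.098. With the mean of all its target IDs Mcm10 was -0.095 at E12.5. Leaving out 1 array, the E11.5 medians lay between -0.066 and 0.004 for replication and between -0.039 and -0.005 for mitosis, and the E12.5 replication median between -0.065 and 0.001. The E8.5 mitosis median ran from -0.095 to 0.027, the E9.5 one from -0.041 to -0.007, the E12.5 one from -0.071 to -0.030 and that of liver minus embryo from -0.033 to 0.059. Single genes ran from -0.057 to 0.92 (Mcm4, E8.5), -0.002 to 0.165 (Rfc4, E11.5), -0.513 to 0.001 (Ttk, E12.5), -0.203 to 0.336 (Cenpf, E12.5) and -0.000 to 0.113 (Mcm7, E12.5). With members of 1 probe, an alternative chosen after seeing the data, the E8.5 medians were 0.053 for replication and -0.059 for mitosis.

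E12.5 liver against E8.5 embryo gave 5791 calls and 13 members with target IDs of 1 probe, against 10829 and 32, with medians of 0.311 for replication and -0.179 for mitosis; fewer target IDs were tested there. The replicate block gave 33 members. The labels do not say what the replicate numbers mark. Deviations from the group means on same-numbered arrays correlated at 0.177, 0.134 and 0.0971 at E8.5 and at 0.00679 to 0.0992 at E12.5. At E9.5 and E11.5 these correlations ran from -0.393 to 0.0685. Because the labels give no pairing, the numbers were not taken as pairs, and these correlations cannot decide it. At E8.5 the block gave 2 calls over all target IDs, against 3, and 0 members. With the mean of all target IDs the percentile medians of replication were 88.8, 92.6, 92.6 and 93.1 at the 4 stages and those of mitosis 85.4 at E8.5 and 92.3 at E9.5. With members of 1 probe they were 92.3, 94.0, 94.4 and 94.1 for replication and 89.3 at E8.5 and 89.7 at E12.5 for mitosis.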
